A study of Mus musculus with 2 samples.

Results

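Bile acids, the detergents that carry fat and cholesterol through the gut, return to the liver through a set of intestinal proteins. Of the 6 genes described here, Slc10a2, Fabp6, Slc51a and Slc51b encode proteins of that route. Fgf15 encodes a hormone and Gpbar1 a cell surface receptor of bile acid signalling. The set is every probe set whose platform gene symbol is one of these names, under the current symbols for the genes also called Osta and Ostb. It came to 5 probe sets out of 45101, 1 for each of 5 genes. Gpbar1 was paired with none by symbol or Entrez ID and was not analysed here.

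RNA came from scrapings of the colon mucosa of C57BL/6 mice, 6 to 8 weeks old by the sample labels and 7 weeks by the design text. All of the mice had been treated with 3% dextran sulfate sodium (DSS), which injures the colon lining, for 3 days. The Hif-2αF/F group carried loxP-flanked (F/F) alleles of Epas1, the gene of the oxygen-regulated transcription factor HIF-2α, and the Hif-2αΔIE group had lost that gene in the intestinal epithelium. The expansion of ΔIE and of F/F is knowledge of this mouse model and not of the labels, and the labels do not name the promoter that drives the Cre recombinase. By the design text there were 6 mice with F/F and 5 with ΔIE, yet there is 1 array per genotype, and whether that array holds pooled RNA is not stated. No undamaged colon was measured, so every value belongs to the DSS-treated state. With 1 array on each side there is no replicate check, and no p-value or error between genotypes exists for any difference below.

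In the textbook circuit, the apical sodium-dependent carrier SLC10A2 takes bile acids up from the lumen, chiefly in the ileum. FABP6 binds them in the cytosol, and the paired subunits SLC51A and SLC51B, neither of which works alone, let them out through the basolateral membrane. Inside the cell bile acids activate the nuclear receptor FXR (gene Nr1h4), which switches on Fabp6, Slc51a, Slc51b and the hormone gene Fgf15. FGF15 then travels to the liver, where its receptor FGFR4 with the co-receptor β-Klotho lowers bile acid synthesis, and GPBAR1 is a separate cell surface receptor that signals through cyclic AMP. The colon meets the bile acids that escape the ileum, and its epithelium is known to carry the SLC51 exporter.

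Promoter sequences are shown first because both FXR and HIF factors have short recognition sequences that can be looked for. A relation of the matches to the differences between the arrays was not tested. RefSeq promoter windows on build GRCm38.p6, from 250 bases before to 50 bases after the annotated start, were found for 5 of the 6 genes. No window was found for Fgf15. Each window is printed 5′ to 3′ on the gene's own strand, and the motif set in capitals was chosen by hand for each gene. For Slc51b (chr9:65422724-65423023, minus strand) and Fabp6 (chr11:43601513-43601812, minus strand), capitals mark matches to the FXR type of element, IR-1, which is AGGTCANTGACCT, with up to 3 mismatches in its 12 fixed bases. For Slc51a (chr16:32487830-32488129, minus strand) and Slc10a2 (chr8:5105238-5105537, minus strand), capitals mark the hypoxia core ACGTG or GCGTG on either strand.
Slc51b: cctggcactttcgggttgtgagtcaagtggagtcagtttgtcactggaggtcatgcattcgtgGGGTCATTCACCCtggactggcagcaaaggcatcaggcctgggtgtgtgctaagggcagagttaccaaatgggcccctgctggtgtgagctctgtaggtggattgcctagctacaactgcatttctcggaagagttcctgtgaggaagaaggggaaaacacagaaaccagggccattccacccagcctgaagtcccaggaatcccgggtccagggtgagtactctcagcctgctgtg
Fabp6: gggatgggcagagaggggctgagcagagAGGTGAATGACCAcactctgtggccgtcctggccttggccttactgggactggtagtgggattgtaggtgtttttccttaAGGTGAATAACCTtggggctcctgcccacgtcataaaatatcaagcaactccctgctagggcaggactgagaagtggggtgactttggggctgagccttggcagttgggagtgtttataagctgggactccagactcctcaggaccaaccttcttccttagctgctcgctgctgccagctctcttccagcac
Slc51a: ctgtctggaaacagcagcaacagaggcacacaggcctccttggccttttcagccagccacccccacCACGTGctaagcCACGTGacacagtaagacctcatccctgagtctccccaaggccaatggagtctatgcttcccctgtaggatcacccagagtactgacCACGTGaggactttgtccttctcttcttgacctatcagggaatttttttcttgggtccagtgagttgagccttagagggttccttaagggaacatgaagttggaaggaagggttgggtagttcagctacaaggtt
Slc10a2: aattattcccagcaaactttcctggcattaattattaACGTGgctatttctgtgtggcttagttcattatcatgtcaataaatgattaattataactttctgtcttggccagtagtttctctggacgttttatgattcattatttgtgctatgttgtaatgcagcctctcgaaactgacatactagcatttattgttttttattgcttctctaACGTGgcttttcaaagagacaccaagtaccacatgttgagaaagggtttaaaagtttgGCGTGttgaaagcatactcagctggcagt

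An IR-1 match with 2 mismatches occurred in the Fabp6 window at 2 places, AGGTGAATGACCA from base -222 and AGGTGAATAACCT from base -142, counted from the transcript start. Among all 32851 promoter windows of this length, 1.14% held a match that close. The best match in Slc51b, GGGTCATTCACCC from base -187, and the best in Slc51a, AGGACTTTGTCCT from base -79, each had 3 mismatches, a level that 11.4% of all windows reached. Slc10a2 and Gpbar1 had none within 3. The limit of 3 was set after the windows had been read.

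Hypoxia cores lay in 3 separate stretches of the Slc51a window, each the palindrome CACGTG that reads as a core on both strands, starting at bases -184, -172 and -85. CACGTG is also the general E-box letter sequence of other factors. Slc10a2 had 3 cores as well, at -213, -37 and 22, and Fabp6 had 1, at -116 on the opposite strand, while Slc51b and Gpbar1 had 0. Of all windows, 43.8% held at least 1 such stretch and 6.55% held 3 or more. The exact nuclear receptor hexamer AGGTCA, which 16.3% of windows contained on either strand, occurred in Slc51a and Slc51b and did not overlap the IR-1 matches. These are letter matches within 300 bases and carry no evidence of binding.

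**Figure D1:**
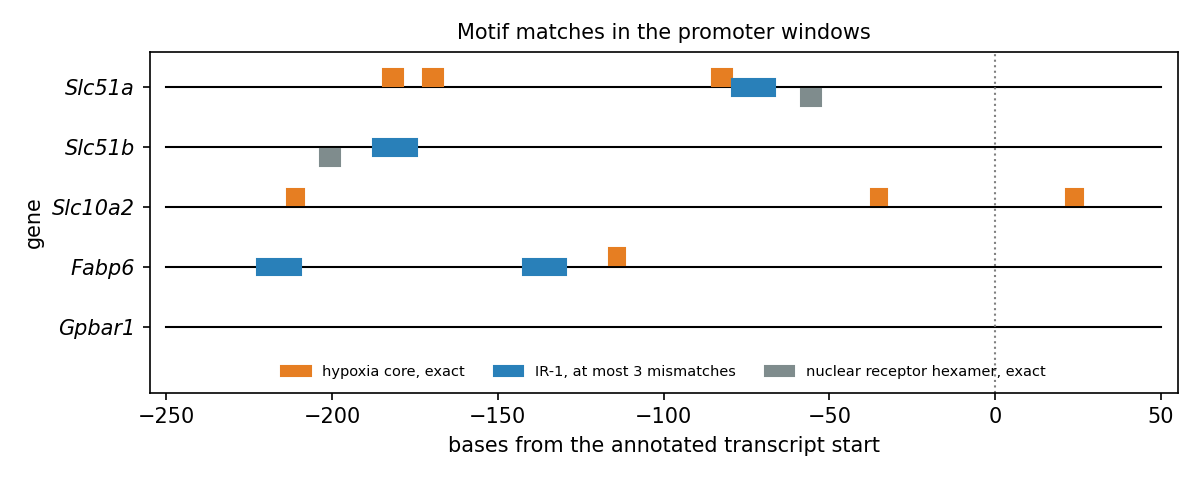
Positions of the motif matches in the 5 promoter windows, in bases from the annotated transcript start (dotted line). Blue boxes are IR-1 matches with at most 3 mismatches, orange boxes hypoxia cores and grey boxes exact nuclear receptor hexamers; Slc51a and Slc10a2 have 3 orange boxes each and Fabp6 has 2 blue ones.

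Uptake and export genes were both higher on the ΔIE array, while the cytosolic carrier differed little. The hormone gene was too dim on both arrays for a difference to be read. Levels are given on the log2 scale of RMA (robust multi-array averaging), so a step of 1 is 2-fold, and differences are ΔIE minus F/F. A gene was counted as expressed above the filter where its higher value reached 6.11, the median over all probe sets. Levels of different probe sets cannot be ranked against each other, since each probe binds with its own strength, so only the difference within a probe set is read.

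Slc10a2, the uptake carrier, read 8.19 (F/F) and 9.29 (ΔIE). The difference of 1.09 is a 2.13-fold higher signal in ΔIE, the widest among the 5 genes. Both values lay well above the filter, by 2.08 and 3.17. Among the 11899 genes of the arrays above the filter, 98 others had a difference at least as high.

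The exporter subunits differed by nearly the same amount. Slc51a read 9.23 (F/F) and 10.18 (ΔIE), a difference of 0.95 or 1.93-fold. Slc51b, which encodes the single-pass partner, read 9.63 and 10.71, a difference of 1.08 or 2.11-fold. Slc51a thus lay just inside the 2-fold line and Slc51b just outside it. The Slc51a probe set is of the _s_at kind, which can match transcripts of more than 1 gene.

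Fabp6, the cytosolic bile acid binder, read 7.37 (F/F) and 7.20 (ΔIE), a difference of -0.17. This is small beside the neighbouring steps of the same route, and it lies between the quartiles of all genes above the filter, -0.18 and 0.19. Fgf15, the hormone gene, read 3.73 and 3.86, below the filter on both arrays. Of 41 control probe sets for bacterial transcripts, 40 also read below the filter, with medians of 3.11 (F/F) and 3.14 (ΔIE) and values up to 4.85 and 5.25. The Fgf15 signal on both arrays fell inside that range, so its difference of 0.13 has no reading and Fgf15 mRNA was not detectable here above this level.

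**Figure D2:**
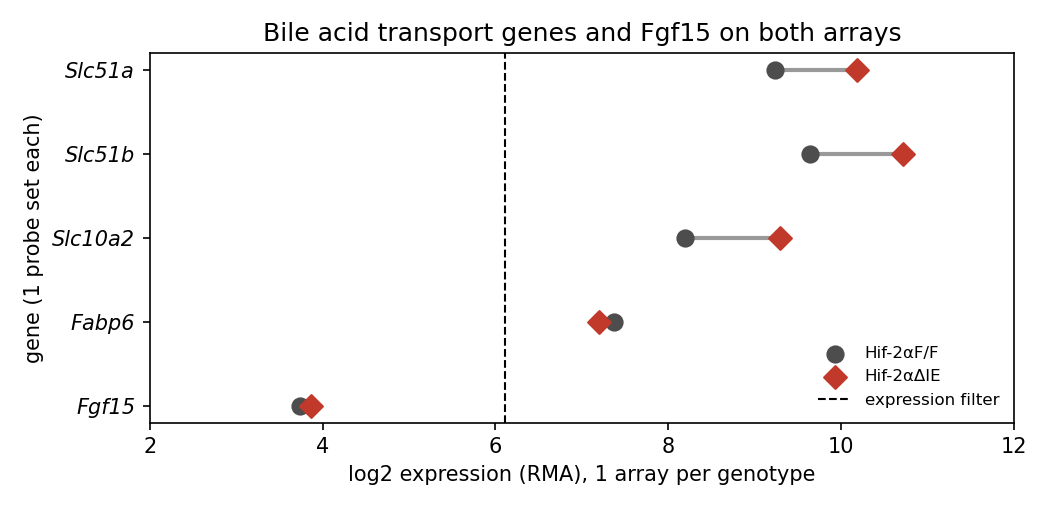
Log2 expression of the 5 genes with a probe set, with the F/F array as grey circles, the ΔIE array as red diamonds and the filter at 6.11 as a dashed line. Slc51a, Slc51b and Slc10a2 are shifted to the right by 0.95 to 1.09 in ΔIE, Fabp6 is nearly in place, and Fgf15 lies left of the filter on both arrays.

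Counted at 2-fold, 2 of the 4 genes above the filter were higher on the ΔIE array, Slc10a2 and Slc51b, and 0 were lower. Over all genes above the filter, 1.15% were higher by that much and 5.30% were lower. Since the 6 genes were picked with earlier results of these arrays in view, the count is a description. As a gauge of measurement spread, the 2 brightest probe sets of 5110 genes gave differences a median of 0.10 apart, and 95% lay within 0.41. Each of the 4 differences rests on a single probe set and a single pair of arrays. The gauge covers disagreement between probe sets only and leaves out variation between mice.

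The rest of the bile acid pathway was followed in 7 lists of 86 genes, of which 81 had a named probe set and 54 passed the filter. Of the 54, 40 were above 0 and 14 below (74.1% above, against 52.7% of all genes above the filter). The median was 0.30, against 0.02 over all genes above the filter. At 2-fold, 4 of the 54 were higher (7.41%, against 1.15% of all) and 5 were lower (9.26%, against 5.30%). Cyp3a25 and Pcsk1, of the higher genes, and Dio2, of the lower ones, passed the filter through 1 array only. So did Acox2 and Fabp3, which were higher by less than 2-fold. The shares above 0 and at 2-fold are thus no support for a direction. With both arrays above the filter, 36 of 49 were above 0 and 13 below, against 6045 and 5140 of all 11280 such genes. At 2-fold, 2 of the 49 were higher (4.08%, against 1.03% of all) and 4 were lower (8.16%, against 4.28%). Gcg, Pyy and Pcsk1 also mark enteroendocrine cells. Without them, and with 1 array enough to pass the filter, 2 were higher and 5 lower at 2-fold. The 2 were Nr5a2 and Cyp3a25.

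Of the bile acid sensors and their partners above the filter, 7 of 8 were higher in ΔIE (87.5%, against 52.7% of all genes above the filter). Their median was 0.46, against 0.02 over all. Without the filter the median over 11 genes was 0.24. Nr1h4, the gene of FXR, read 9.72 (F/F) and 10.57 (ΔIE), a difference of 0.85. Nr5a2, which encodes LRH-1, a nuclear receptor that acts with FXR on several bile acid genes, read 8.67 and 9.87, a difference of 1.20 or 2.29-fold. Its 3 probe sets above the filter gave 1.02 to 1.20. The receptors PXR (Nr1i2, 0.60) and VDR (0.59), which also bind secondary bile acids, were under 2-fold.

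Nr0b2, the gene of the FXR-induced repressor SHP, stayed below the filter at 5.24 and 5.49. The partner genes Rxra and Rxrb differed by 0.14 and 0.01, and the gut regulator Hnf4a by 0.33. S1pr2, a membrane receptor for conjugated bile acids, was the one lower gene among the 8 above the filter. It differed by -0.22 by its brightest probe set and by -0.46 by the other. Nr1i3 (CAR) and Rxrg, below the filter, differed by -0.48 and -0.03.

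Other carriers and pumps went both ways. Their median was 0.31 over 7 genes, 4 above 0 and 3 below, and 0.19 without the filter. Abcc4, a basolateral export pump for conjugated bile acids and cyclic nucleotides, read 9.63 (F/F) and 8.55 (ΔIE), 2.11-fold lower. The companion basolateral pump Abcc3 read 11.36 and 11.77, a difference of 0.42. These alternative exporters thus differed in opposite directions. Abcb1a, a broad drug pump, differed by 0.78, Abcg2 by 0.39 and the sterol transporter subunit Abcg5 by -0.92. The hepatic carriers Slc10a1, Slco1b2 and Slco1a1 and the canalicular pumps Abcb11 and Abcb4 were below the filter on both arrays. Abcc2, the apical counterpart, read 4.39 and 5.34, also below it.

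On the receiving side of FGF15 the colon showed little difference. Fgfr4 read 6.65 (F/F) and 6.97 (ΔIE), and the co-receptor gene Klb read 6.04 and 5.84, just below the filter. Fgfr1, Fgfr2 and Fgfr3 differed by -0.36, 0.28 and 0.16. No gene of the 5 above the filter reached 2-fold, and the median was 0.16, or 0.06 with probe sets averaged and 0.04 without the filter. The related hormone genes Fgf21 and Fgf23 were below the filter.

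The liver enzyme genes Cyp7a1 and Cyp8b1 of bile acid synthesis were below the filter on both arrays. Cyp27a1, of the same list, lay above it at 9.13 (F/F) and 9.17 (ΔIE). Cyp7a1, the rate-limiting enzyme that FGF15 represses in the liver, read 3.70 and 3.78, and Cyp8b1 read 3.95 and 4.01. Of the 10 synthesis and conjugation genes above the filter, 9 were higher (90.0%, against 52.7% of all genes above the filter), all under 2-fold. The median was 0.31. Acox2 among the higher ones passed the filter through the ΔIE array only, and with both arrays above it the median was 0.29. Those that were higher include peroxisomal enzymes of side chain shortening, Hsd17b4 (0.44), Scp2 (0.36) and Acot8 (0.35), which also serve fatty acid oxidation.

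Cyp7b1 was the exception. It read 8.45 (F/F) and 6.83 (ΔIE), 3.08-fold lower, and its 2 probe sets above the filter gave -1.62 and -1.49. The enzyme hydroxylates oxysterols, both on the alternative synthesis route and for a ligand that guides B cells. Of 6 B cell markers on the same arrays, Cr2 and Pax5 passed the filter through the F/F array only. All 6 markers were lower, with a median of -1.81, against 5529 of all 11899 genes above the filter that were lower. With Cr2 and Pax5 among the 6, the count is no support for a direction. The part of B cells in the Cyp7b1 difference was not tested.

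All 6 inactivation genes above the filter were higher in ΔIE (100%, against 52.7% of all genes above the filter), and their median was 0.56. Cyp3a25 was among them through the ΔIE array only, and with both arrays above the filter the median was 0.54. Cyp3a25, a cytochrome P450 of the family that hydroxylates bile acids and drugs, read 5.91 in F/F, below the filter, and 7.78 in ΔIE. The sulfotransferase gene Sult1a1 differed by 0.92, the glucuronidation gene Ugt2b34 by 0.58 and the glutathione transferase gene Gstm1 by 0.54. The 4 probe sets of Gstm1 gave 0.54 to 0.73.

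Fabp6 can be set beside its own family, the cytosolic fatty acid binding proteins. Fabp2, the intestinal member, read 12.76 and 13.31, a difference of 0.55, and Fabp4, the adipocyte member, also differed by 0.55. Fabp3, above the filter on the ΔIE array only, differed by 0.30. Fabp5 read 13.28 (F/F) and 12.45 (ΔIE) by its brightest probe set and differed by -1.42 by the other, so its size depends on the probe set. Fabp1, the liver type that the proximal small intestine makes in quantity, was below the filter at 3.32 and 3.86.

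For GPBAR1 only the downstream chain could be read, and it went both ways, with 7 of 14 genes above 0 and a median of -0.11, or -0.28 without Gcg, Pyy and Pcsk1. The L cell hormone gene Gcg, from which GLP-1 is made, read 8.39 (F/F) and 9.78 (ΔIE), 2.62-fold higher. Pcsk1, the protease that matures GLP-1, read 6.03, below the filter, and 7.57. Pyy, made by the same cells, differed by -0.58. The enteroendocrine list as a whole had a median of 1.09, against 0.02 over all genes above the filter. At 2-fold, 6 of 10 markers were higher, against 1.15% of all genes above the filter. Insl5, at -2.73, was the 1 marker lower by that much, against 5.30% of all. Gcg and Pcsk1 are among the 6, and Pcsk1 passed the filter through the ΔIE array only, so the count is no support for a direction. The list is thus not independent of the Gcg and Pcsk1 differences, and the part of enteroendocrine cells in them was not tested.

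Inside the cyclic AMP chain, Adcy7 and Prkacb were lower in ΔIE. Adcy7, an adenylate cyclase, read 9.05 and 7.89 and was 2.24-fold lower. Prkacb, a catalytic subunit of protein kinase A, read 10.35 and 9.04 and was 2.47-fold lower. Dio2, the thyroid hormone activating enzyme downstream of GPBAR1 in brown fat, read 7.35 and 5.77. The main subunit genes Gnas and Prkaca differed by 0.06 and 0.09. Macrophage and monocyte markers, from cells in which Gpbar1 is known to act, had a median of -1.03. All 12 were lower, against 5529 of all 11899 genes above the filter. Itgam among them passed the filter through the F/F array only, so the count is no support for a direction. The part of these cells was not tested.

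**Figure D3:**
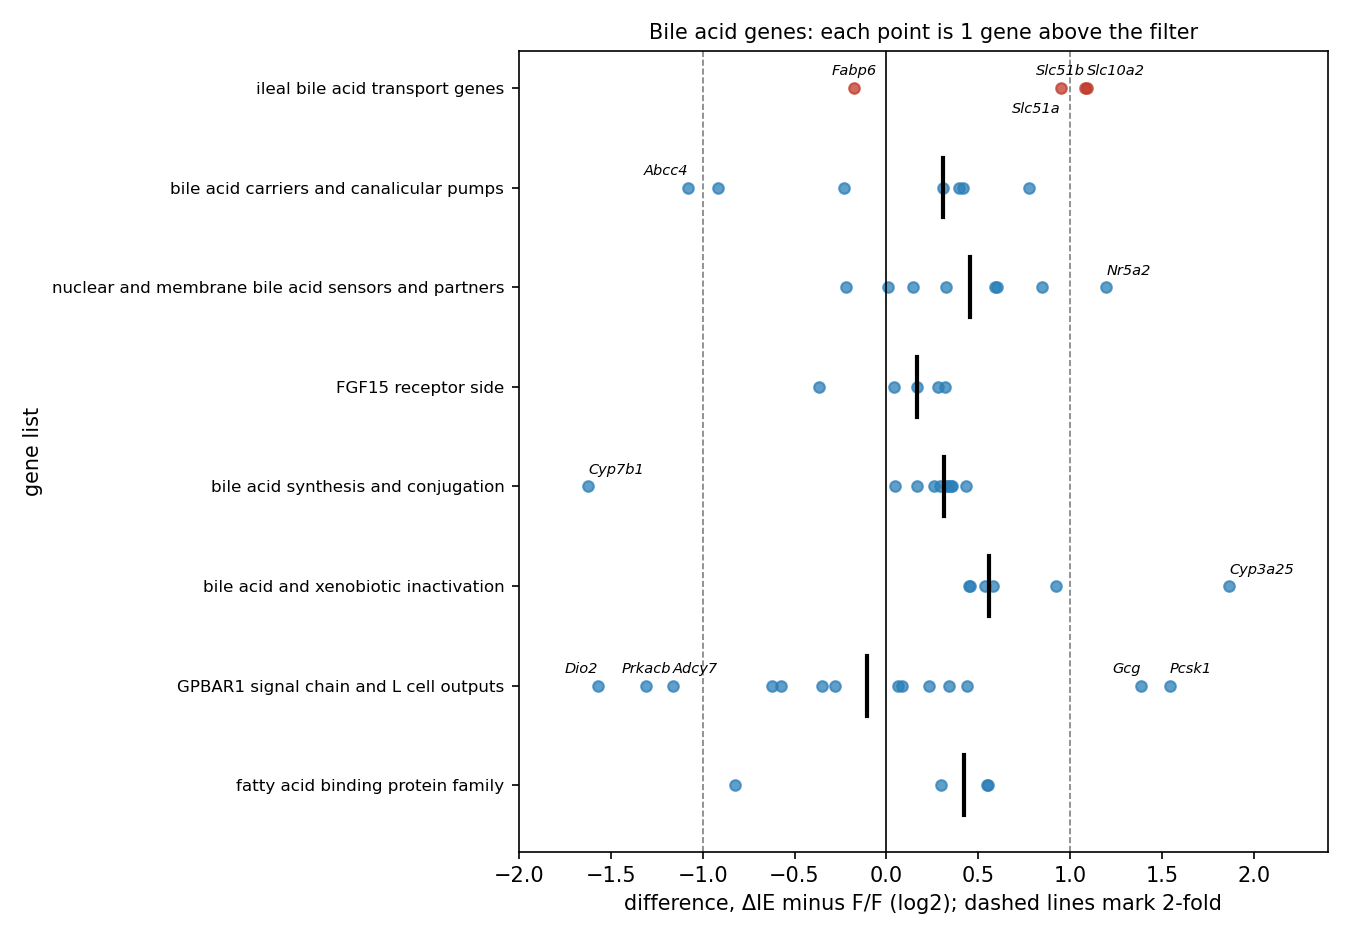
Difference between the arrays (ΔIE minus F/F, log2) for each gene above the filter, by list, with the list median as a black bar and dashed lines at 2-fold. The top row holds Fabp6, Slc51a, Slc51b and Slc10a2; in the rows below, 4 genes lie beyond the right dashed line and 5 beyond the left one.

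Among the 54 pathway genes, those whose difference lay nearest to that of Slc10a2 were Nr5a2 (gap 0.10), Sult1a1 (0.17) and Nr1h4 (0.25). The same 3 genes were nearest to Slc51b, with gaps of 0.12, 0.16 and 0.23. The measure is the absolute gap between differences over 2 arrays, which many genes can share.

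The genotype labels were checked on the arrays. All 4 control probe sets for Cre recombinase read 7.86 to 10.01 for ΔIE and 2.92 to 4.22 for F/F. Epas1 differed by -0.13 and 0.16 by its 2 probe sets, whose place relative to the deleted part is not known here. Epithelial markers were high on both arrays, with Epcam at 13.80 and 13.89. The 9 had a median difference of 0.26, 6 of them above 0, near the 0.30 of the pathway genes, and their summed level was 0.12 higher in ΔIE. Their part in the pathway differences was not tested.

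Several sets of markers differed on the same arrays as the transport genes. All 7 posterior Hox genes above the filter, which mark the distal end of the gut, were lower in ΔIE (median -1.49, difference of the summed level -2.23, Hoxb13 10.76 against 7.94). Hoxa10, Hoxa13 and Hoxd11 among them passed the filter through the F/F array only, so the count is no support for a direction. Cdx2, an intestinal identity factor, was 1.02 higher. Surface colonocyte markers had a median of 0.04, with Slc9a3 at 1.47 and Atp12a at -2.42. Of 13 small intestinal enterocyte markers 7 were below the filter on both arrays, among them Apoa1, Apoa4, Lct and Gata4, and the 6 above it had a median of 0.47, led by Cubn (5.59 in F/F, 7.18 in ΔIE). Of 9 hepatocyte markers 6 were below the filter, including Alb at 4.98 and 5.25. Squamous epithelium markers had a median of -1.26 and adipocyte markers one of 0.85. Of the squamous markers, Krt1 passed the filter through the F/F array only. Lor, the 1 that was higher (0.60), passed through the ΔIE array only. In a scraping, fewer cells of a type and less RNA per cell cannot be told apart. The part that gut position or cell makeup has in the Slc10a2, Slc51a and Slc51b differences was not tested.

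**Figure D4:**
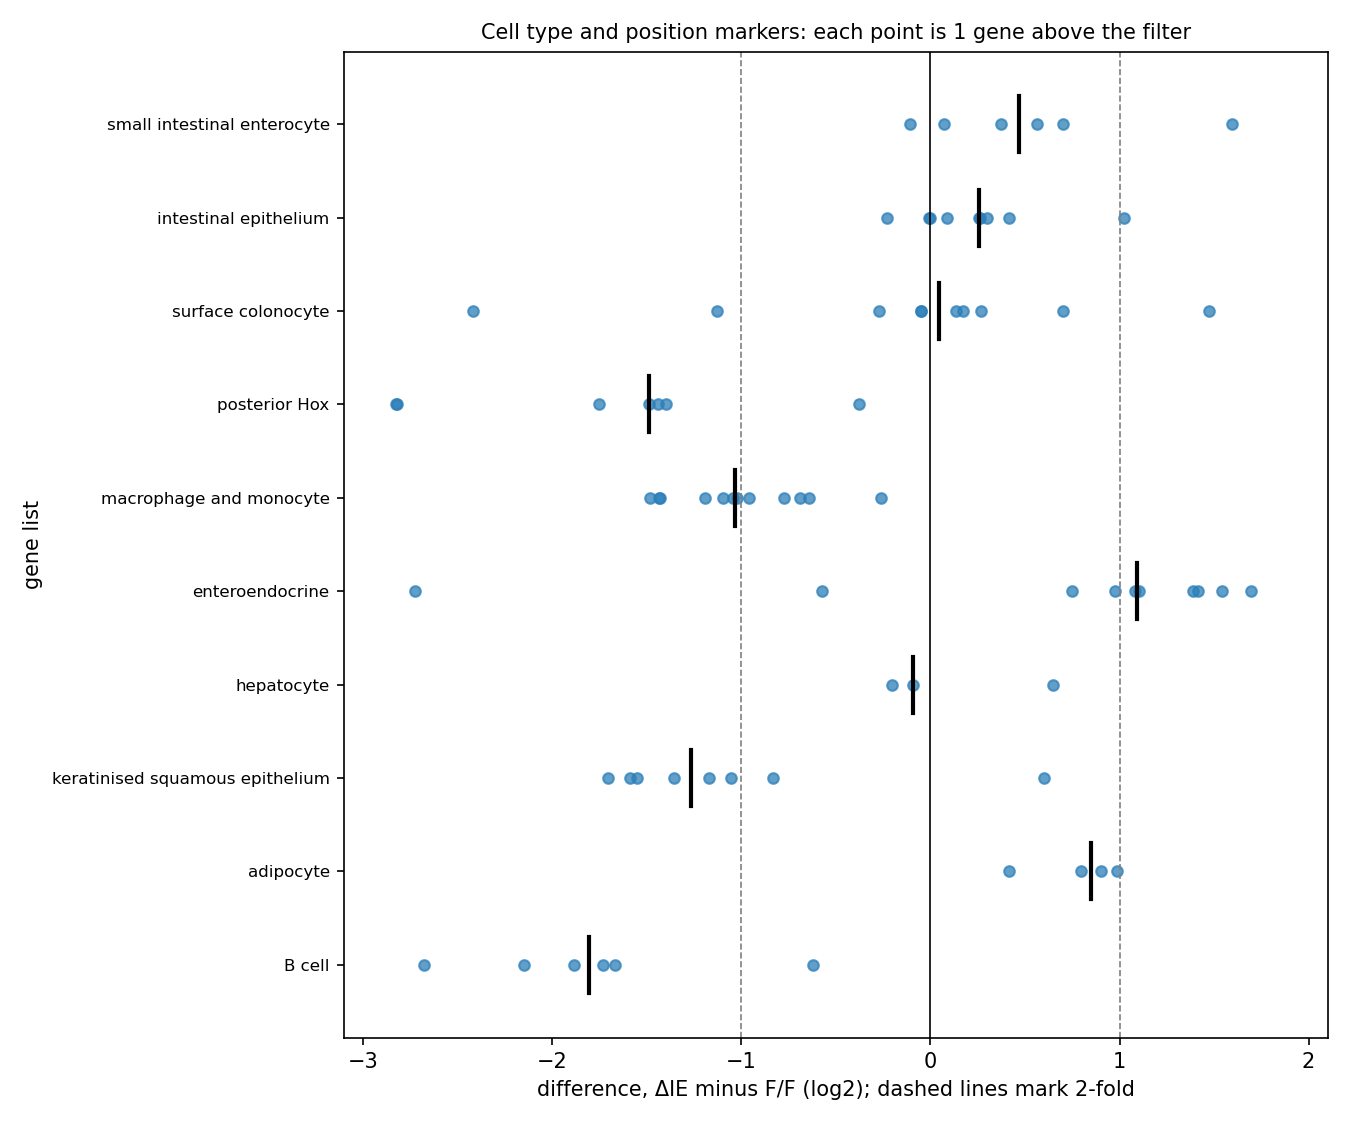
Difference between the arrays (ΔIE minus F/F, log2) for each marker gene above the filter, by list, with the median as a black bar and dashed lines at 2-fold. All 7 posterior Hox, 12 macrophage and 6 B cell points lie left of 0, all 4 adipocyte points lie right of it, and the colonocyte median sits near 0. Among the Hox, macrophage and B cell points, Hoxa10, Hoxa13, Hoxd11, Itgam, Cr2 and Pax5 passed the filter through the F/F array only.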

How the data were processed

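The deposited table holds log2 expression of 45101 probe sets on 2 arrays, which the authors made with affy and RMA, per the submitters' processing notes, with no versions stated there. RMA gives no detection call, compresses differences of dim probe sets and makes the distributions of the arrays equal. Symbols came from the platform annotation, with 34958 probe sets paired to 1 symbol, 932 to several and 9211 to none, updated through Entrez ID; probe sets with several or none stayed unnamed, and 64 control probe sets were kept out. A gene took its brightest probe set by mean, and 11899 of 18193 genes passed the filter of 6.11. No test was run, because each group has 1 array. The 6 genes and the 7 pathway and 10 marker lists were chosen with earlier results of these data known. Named are all members, pathway list genes at 2-fold, otherwise up to 4 of largest difference, up to 3 genes of largest difference in each marker list and the loop genes Nr1h4, Nr0b2, Fgfr4, Klb and Cyp7a1. Others were named after their values were seen. The counting code was tested on simulated data. Alternatives were median centring, lowess (span 0.3), probe sets averaged or of unshared kinds only, other filters, a floor on dim values, and 1.5-fold and 3-fold thresholds. Python 3.11.15, numpy 2.4.6, pandas 2.3.3, statsmodels 0.14.6 and matplotlib 3.10.9 were used.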

Additional observations from a re-analysis of the deposited data

Results flagged for a closer look

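The array's 3 control probe sets for mouse 18S ribosomal RNA, which no comparison used, were higher on the ΔIE array than on the F/F control array. The 3′ one differed by 0.58, the 5′ one by 0.37 and the middle one by 0.69 on the log2 scale. The 6 control probe sets for actin and Gapdh differed by -0.14 to -0.07 on the same arrays. The difference was not tested, with 1 array per genotype, and its part in the bile acid gene differences was not tested.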

How the results depend on the processing

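Direction was kept by Slc51a, Slc51b, Slc10a2 and Fabp6 under every alternative that gave a value, and Slc10a2 and Slc51b stayed above 2-fold. Slc10a2 ran from 1.05 to 1.11, Slc51b from 1.03 to 1.10, Slc51a from 0.90 to 0.96 and Fabp6 from -0.21 to -0.16. Fgf15 ran from 0.00, with dim values raised to the filter, to 0.15. Each has 1 probe set, so averaging changes nothing, and Slc51a has no value without _s_at probe sets. No list median changed sign, and that of all pathway genes ran from 0.25 to 0.32. Without the filter the median fell to 0.19 for carriers, 0.24 for sensors and 0.04 for the FGF15 receptor side, which was 0.0591 with probe sets averaged. That of the GPBAR1 chain was -0.28 without marker genes. A median was taken to have moved past 1.5 times, a limit set after seeing the data. The count of pathway genes at least 2-fold higher, 4, was 2 when the filter was set to the 75th percentile, 2 when both values had to pass it, and 2 without marker genes, an alternative chosen after seeing the data. At 1.5-fold, 9 were higher and 8 lower, and at 3-fold 1 and 1. No paired analysis was possible because each genotype has 1 array, and no replicate could be left out. The number of arrays limits the precision.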
